A study of Mus musculus with 22 samples.

Results

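Myelin and mature oligodendrocyte genes were followed through injured spinal cord of mice as 9 genes matched by symbol, Mbp, Mobp, Mal, Cnp, Mag, Mog, Cldn11, Ermn and Klk6, of the 24060 gene rows in the deposited tables. All 9 were found, and all 9 passed the filter on low counts in every comparison. Young adult female mice carried mGFAP-Cre, a Cre recombinase under the mouse Gfap promoter, together with RiboTag, a Cre-switched hemagglutinin (HA) tag on a ribosomal protein, so uninjured controls carried both alleles as well. In each animal, spinal cord was separated into RNA precipitated with the HA tag (HA IP), which is enriched for ribosome-bound RNA of Cre-active cells but also held transcripts of other cells' marker genes, and the RNA left unprecipitated (flow-through). Uninjured mice (n = 4, of matched sex and age) and mice with a severe crush spinal cord injury (SCI) of the same genotype (WT SCI, n = 4) were compared with injured mice that also carried STAT3-LoxP (STAT3-CKO SCI, n = 3), where Cre-active cells lose the transcription factor STAT3. The crush was made at thoracic level 10, and 14 days later 3 mm of cord at the lesion centre were taken. Uninjured STAT3-CKO mice were not analysed here, so injury and genotype cannot be told apart where STAT3-CKO SCI is compared with uninjured mice. The 11 animals gave 22 libraries in 6 groups.

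Myelin is the multilayered sheath that oligodendrocytes wrap around axons in the spinal cord, where white matter holds dense bundles of myelinated fibres. Mature oligodendrocytes make large amounts of a small set of membrane, cytoskeletal and adhesion proteins, and the transcription factors OLIG2, SOX10 and MYRF switch these genes on as precursor cells differentiate. Crush injury kills oligodendrocytes and strips myelin, after which precursors divide and form new oligodendrocytes and phagocytes take up myelin debris. The Gfap promoter is best known to be active in astrocytes, the star-shaped support cells of the same tissue.

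Promoter sequences of RefSeq (build GRCm38.p6), the 250 bases before each start, were found for 8 of the 9 genes, all but Mbp. They were searched on both strands for short letter strings that SOX factors (ACAAAG and ACAATG) and MYRF (CTGGCAC and CTGGTAC) are known to bind. The SOX strings differ from each other in 1 letter, as do the MYRF strings, no SOX string lies inside a MYRF string, and a match is a description of the letters only. Mag and Cnp are shown because they are the 2 that hold a SOX and a MYRF string. Mobp is shown because it holds ACAAAG, read on the opposite strand as CTTTGT, 6 times. Mal, whose level in flow-through moved against that of Mbp, is shown as an example of a window that holds none. Cldn11, whose level rose in both fractions as that of Mbp did, also holds none. Ermn, which fell in flow-through as Mal did, holds ACAATG. Matches are in capitals. The windows are chr7:30914864-30915113 (minus strand, Mag), chr11:100574689-100574938 (plus, Cnp), chr9:120149492-120149741 (plus, Mobp) and chr2:127656696-127656945 (minus, Mal), each written 5′ to 3′ along the gene.
Mag: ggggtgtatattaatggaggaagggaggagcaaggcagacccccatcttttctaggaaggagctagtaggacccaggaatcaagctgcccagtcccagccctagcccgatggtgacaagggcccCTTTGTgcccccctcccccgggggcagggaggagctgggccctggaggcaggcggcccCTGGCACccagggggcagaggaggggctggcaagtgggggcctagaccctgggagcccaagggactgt
Cnp: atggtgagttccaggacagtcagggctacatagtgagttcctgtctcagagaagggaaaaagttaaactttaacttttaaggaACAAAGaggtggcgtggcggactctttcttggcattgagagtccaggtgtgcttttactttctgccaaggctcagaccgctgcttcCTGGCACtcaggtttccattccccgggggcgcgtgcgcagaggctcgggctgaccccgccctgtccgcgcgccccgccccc
Mobp: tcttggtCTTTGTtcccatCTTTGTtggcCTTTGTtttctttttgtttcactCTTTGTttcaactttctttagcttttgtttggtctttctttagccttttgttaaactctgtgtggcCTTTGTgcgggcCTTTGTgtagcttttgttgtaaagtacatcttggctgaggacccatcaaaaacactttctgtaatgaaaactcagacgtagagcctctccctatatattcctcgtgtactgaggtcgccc
Mal: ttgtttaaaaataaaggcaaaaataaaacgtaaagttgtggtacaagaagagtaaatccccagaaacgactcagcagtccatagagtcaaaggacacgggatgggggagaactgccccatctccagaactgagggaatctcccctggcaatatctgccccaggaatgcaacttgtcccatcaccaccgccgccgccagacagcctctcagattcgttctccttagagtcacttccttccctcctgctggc
A SOX string stood in 5 of the 8 windows, against 25.2% of 32817 RefSeq windows of the same length, and a MYRF string in 3 of 8, against 5.92%. Both kinds together were in 1.55% of all windows. ACAAAG occurred at least 6 times in 1 window of all 32817, that of Mobp.

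The genes lie on 7 chromosomes of the mouse build GRCm38 (GENCODE annotation). Mbp is at chr18:82475146-82585637 on the plus strand and Mobp at chr9:120149707-120181484 on the plus strand. Mal (chr2:127633226-127656695) and Ermn (chr2:58045113-58052864) are both on the minus strand of chromosome 2. Mag, on the minus strand at chr7:30899176-30914873, and Klk6, on the plus strand at chr7:43824499-43832030, share chromosome 7. Cnp is at chr11:100574904-100591729 (plus), Cldn11 at chr3:31149920-31164324 (plus) and Mog at chr17:37010743-37023398 (minus). The strand setting of the counting is not given in the sources used here. Reads in the stretch that Cnp shares with Dnajc7, on the opposite strand, may therefore be mixed, as may those of Ermn with Galnt5. Mbp and Rpl21-ps8 overlap on opposite strands too, as do Mog and Gm22388. These are overlaps of whole gene spans, and overlap of exons was not examined. The values of these genes are uncertain to that extent.

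Total counts ranged from 31292491 to 59337089 in the 11 HA IP libraries and from 3898755 to 11242654 in the 11 flow-through libraries. Outside the ribosomal rows (Rn45s, Lars2 and Mir6236) at least 26934866 counts remained in each uninjured HA IP library and at least 620265 in each of WT SCI, while the lowest flow-through library, of WT SCI, kept 91626. Rn45s, a ribosomal RNA precursor, took 12.6 to 26.7% of HA IP counts in uninjured mice. Its share was 89.0 to 96.2% with WT SCI and 52.2 to 89.2% with STAT3-CKO SCI, where animal 186 overlapped WT SCI. Of counts outside those rows, the 9 genes together made up 0.676 to 0.899% in uninjured HA IP, 2.76 to 4.39% after WT SCI and 1.70 to 2.16% after STAT3-CKO SCI. In flow-through they made up 1.54 to 1.98%, 1.95 to 2.47% and 1.28 to 1.62%. The lowest count of any of the 9 genes was 5, of Klk6 in the flow-through of WT SCI animal 9935. Levels are counts-per-million (CPM) of a library size scaled with the trimmed mean of M-values (TMM) within a fraction, so they compare groups within a fraction but not HA IP with flow-through. Below, 4 values of uninjured mice are in the order of animals 42, 79, 65 and 154, those of WT SCI in the order 9935, 9874, 9843 and 9596, and the 3 of STAT3-CKO SCI in the order 186, 531 and 270. Differences are log2 values ± standard error from edgeR's quasi-likelihood test, two-sided, and a gene is called at a Benjamini-Hochberg adjusted p under 0.05 over all genes tested. P-values of comparisons within a fraction measure the spread between animals. Tests between the fractions treat both libraries of an animal as independent, except where the animal is named as a block.

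After injury of WT mice, 7 of the 9 genes rose in HA IP, from 1.99-fold for Mog to 10.8-fold for Klk6, while in flow-through of the same animals only Mbp and Cldn11 rose, Mal and Ermn fell, and the other 5 were not called. In HA IP 15.8% of 14764 genes were called higher and 10.9% lower. In flow-through 16.7% of 12685 genes were called higher and 14.3% lower. The median of the 9 differences was 1.62 in HA IP, beside 0.00 over all genes tested, and 0.08 in flow-through, beside -0.09 over all genes tested. In bulk RNA, fewer cells of a type and less of its RNA per cell cannot be told apart, nor can more cells and more RNA per cell.

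Mbp encodes myelin basic protein, which holds the inner faces of the myelin membrane together. Its HA IP level was 667, 985, 726 and 778 CPM in uninjured mice and 5785, 5353, 6884 and 3974 CPM in WT SCI. Every injured library lay above every uninjured one, by 2.8 ± 0.26 (6.97-fold, adjusted p = 6.9e-07, edgeR). In flow-through, Mbp was at 1767, 2317, 2164 and 1822 CPM before and 3706, 3169, 3824 and 3521 CPM after injury. These groups did not overlap either, but the rise was smaller, 0.82 ± 0.26 (1.76-fold, adjusted p = 0.018), and it missed the threshold without uninjured animal 154 (0.78, adjusted p = 0.074).

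Mobp, a basic protein of compact myelin, was at 66.8, 79.4, 60.9 and 103 CPM in uninjured HA IP and at 221, 264, 286 and 186 CPM in WT SCI. The groups did not overlap, and Mobp rose by 1.62 ± 0.24 (3.08-fold, adjusted p = 8.1e-05, edgeR). Its flow-through values of 167, 201, 182 and 233 CPM before and 239, 258, 249 and 212 CPM after injury overlapped, and the difference of 0.29 ± 0.24 was not called (adjusted p = 0.38).

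Mal, a proteolipid of compact myelin and of membrane trafficking, moved differently. In flow-through it was at 144, 163, 154 and 181 CPM in uninjured mice and at 31.5, 37.9, 42.1 and 49.7 CPM in WT SCI. All injured libraries lay below all uninjured ones, and Mal fell by 1.96 ± 0.26 on the log2 scale (3.9-fold, adjusted p = 1.7e-06, edgeR). In HA IP its values were 94.7, 107, 84.8 and 128 CPM before and 43.99, 68.2, 46.7 and 96.7 CPM after injury. The WT SCI library of animal 9596 lay inside the uninjured range and the other 3 below it, so the difference of -0.69 ± 0.29 was not called (adjusted p = 0.083), while it was without animal 9596 (-0.96, adjusted p = 0.021).

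Cnp encodes a phosphodiesterase of the cytoplasm-filled channels of myelin. In HA IP it was at 115, 170.4, 143 and 153 CPM in uninjured mice and at 367, 494, 318 and 448 CPM in WT SCI, without overlap. It rose by 1.48 ± 0.23 (2.8-fold, adjusted p = 0.00013, edgeR). In flow-through it was at 199, 262, 277 and 209.8 CPM before and 306, 394, 323 and 243 CPM after injury, where the groups overlapped and the difference of 0.42 ± 0.25 was not called (adjusted p = 0.21).

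The adhesion molecules Mag and Mog sit at the 2 faces of the sheath, Mag on the inner membrane next to the axon and Mog on the outermost one. Mag was at 20.4, 30.6, 22.7 and 26 CPM in uninjured HA IP and at 89.9, 162, 154 and 78.2 CPM in WT SCI. The groups did not overlap, and it rose by 2.28 ± 0.28 (4.87-fold, adjusted p = 8.8e-06, edgeR). Its flow-through levels of 34.8, 54.7, 59.7 and 44.8 CPM before and 55.2, 57.3, 36.1 and 56.6 CPM after injury overlapped, with a difference of 0.08 ± 0.27 (adjusted p = 0.85).

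Mog varied widely between injured animals. Its HA IP level was 18.5, 26.7, 19.8 and 25.5 CPM in uninjured mice and 15.0, 53.6, 42.5 and 67.3 CPM in WT SCI. Animal 9935 lay below all uninjured libraries and the other 3 lay above them. The rise of 0.99 ± 0.33 (1.99-fold) was called at an adjusted p of 0.034, and it was 1.27 without animal 9935. It was called in 8 of 15 alternative analyses, with differences from 0.73 to 1.27. In flow-through, Mog was at 33.8, 52.3, 51.5 and 45.9 CPM before and 27.6, 52.7, 22.9 and 32.0 CPM after injury, overlapping, with a difference of -0.43 ± 0.29 (adjusted p = 0.28).

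Cldn11 encodes claudin 11, which forms the tight junctions between myelin layers. In HA IP it was at 18.5, 23.6, 17.2 and 23.4 CPM in uninjured mice and at 212, 116, 122 and 129 CPM in WT SCI, where animal 9935 was the highest. All injured libraries lay above all uninjured ones, by 2.8 ± 0.27 (6.97-fold, adjusted p = 1.0e-06, edgeR). Its flow-through levels of 37.3, 33.7, 37.8 and 33.1 CPM before and 61.1, 80.5, 76.7 and 74.96 CPM after injury did not overlap either. That rise of 1.06 ± 0.26 (2.08-fold, adjusted p = 0.0029) held in all 15 alternative analyses.

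Ermn encodes ermin, a cytoskeletal protein of late oligodendrocyte differentiation. Its flow-through level fell from 86.9, 80.6, 73.6 and 79.6 CPM in uninjured mice to 23.7, 28.6, 28.0 and 49.1 CPM in WT SCI. The groups did not overlap, and the fall was 1.26 ± 0.27 on the log2 scale (-1.26, adjusted p = 0.00087, edgeR). In HA IP, uninjured mice had 40.05, 44.8, 35.8 and 41.8 CPM and WT SCI had 19.6, 32.8, 31.9 and 83.0 CPM. Of the injured libraries, 3 lay below all uninjured ones and that of animal 9596 above them, which left a difference of 0.05 ± 0.35 (adjusted p = 0.925) with that animal and -0.52 (adjusted p = 0.19) without it.

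Klk6, a secreted serine protease made by oligodendrocytes and able to cleave myelin proteins, had the largest change of the 9 genes in HA IP. It was at 3.81, 3.84, 3.6 and 3.17 CPM in uninjured mice and at 27.05, 45.5, 56.7 and 26.7 CPM in WT SCI, without overlap. The rise was 3.44 ± 0.45 (10.8-fold, adjusted p = 1.9e-05, edgeR). In flow-through, Klk6 was at 15.8, 19.3, 25.5 and 13.4 CPM before and 9.86, 20.1, 14.8 and 23.2 CPM after injury. Animal 9935 lay below all uninjured libraries and the other 3 inside their range, with a difference of -0.05 ± 0.37 (adjusted p = 0.93).

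**Figure D1:**
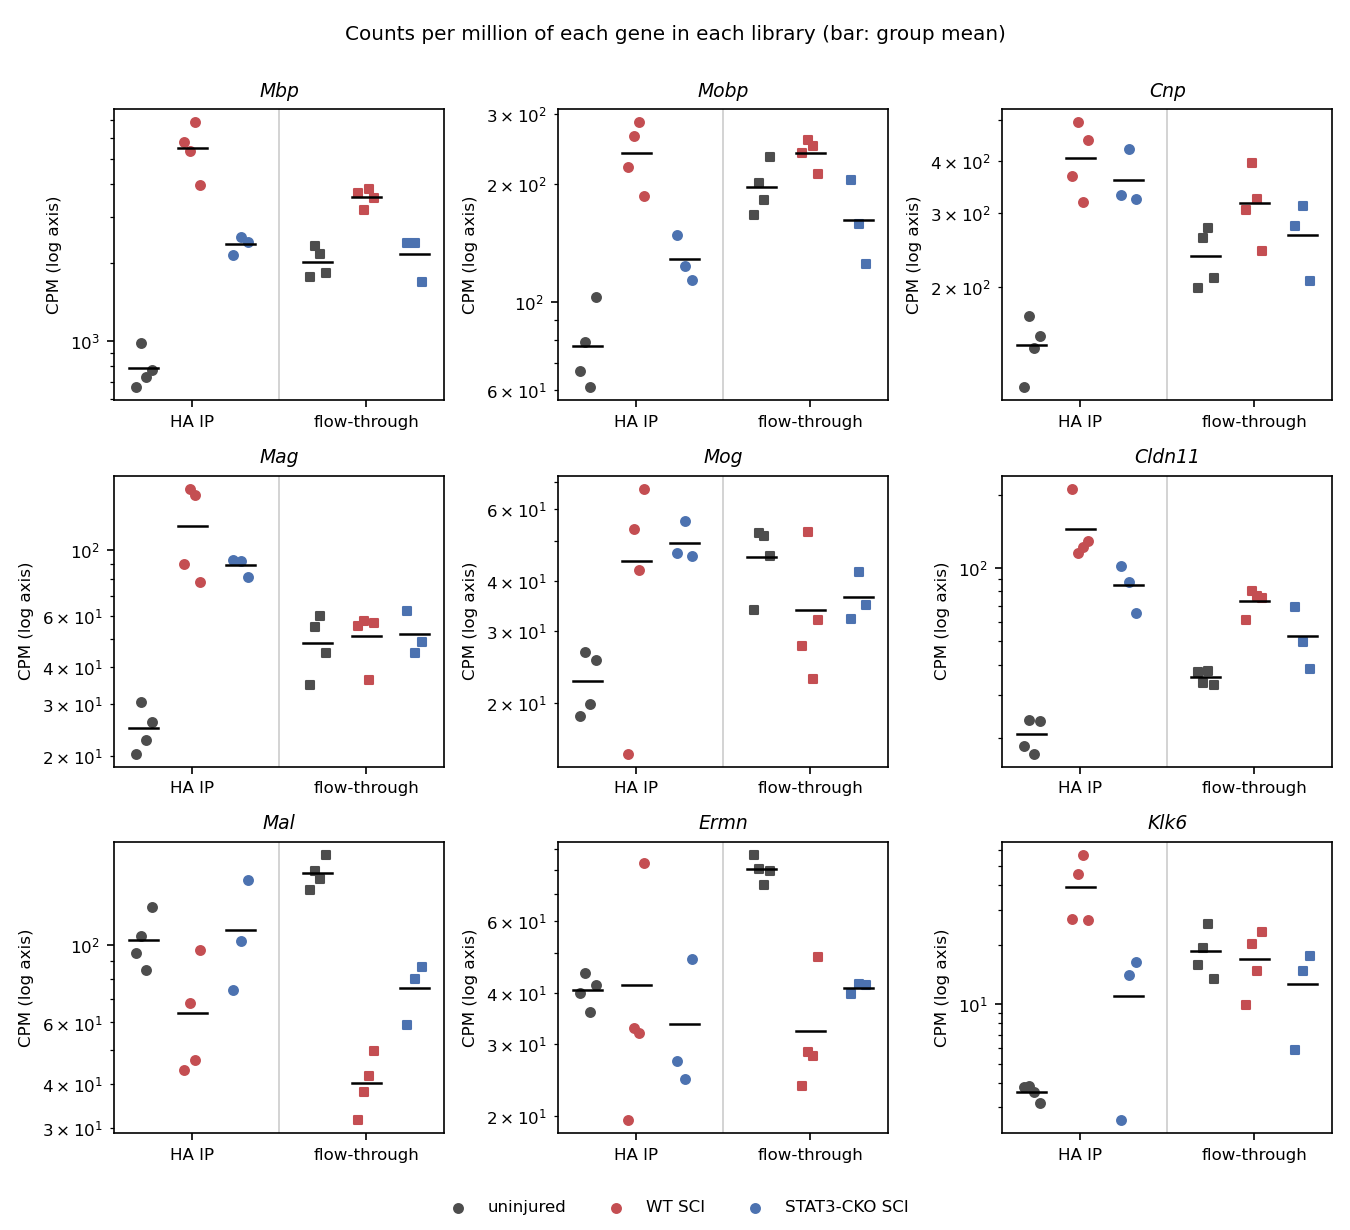
Level of each of the 9 genes in every library, in CPM on a log axis whose range differs by panel. Circles are HA IP and squares flow-through, colours are uninjured, WT SCI and STAT3-CKO SCI, and bars are group means. HA IP and flow-through are scaled separately. For Mbp, Mobp, Cnp, Mag, Cldn11 and Klk6 all WT SCI points of HA IP lie above all uninjured ones, while for Mal and Ermn all WT SCI points of flow-through lie below.

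Groups in which all WT SCI libraries lay above all uninjured ones were found for 6 of the 9 genes in HA IP, where 12.9% of genes tested had that pattern. The same 6, Mbp, Mobp, Cnp, Mag, Cldn11 and Klk6, were called under each of the 15 alternative analyses of that comparison. In flow-through, Cldn11, Mal and Ermn were called under all 15.

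The change with injury differed between the fractions for all 9 genes, but for 4 of them the call depended on the processing. Tested in 1 fit of all 22 libraries, the HA IP change minus the flow-through change was above 0 and called for 9 of 9, where 2.67% of 15142 genes were called higher and 2.03% lower. The 9 differences had a median of 1.60, beside 0.26 over all genes tested. With the RLE scaling of library sizes in place of TMM, the all-gene median was 0.06 and that of the 9 genes 1.38. Calls over all genes then split into 258 higher and 405 lower, against 405 and 308 with TMM.

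Klk6 had the largest such difference, 3.67 ± 0.58 (adjusted p = 0.00020, edgeR). Mag followed with 2.39 ± 0.38 (adjusted p = 0.00018), Mbp with 2.17 ± 0.31 (adjusted p = 8.1e-05) and Cldn11 with 1.93 ± 0.35 (adjusted p = 0.000945). Mobp was at 1.52 ± 0.33 (adjusted p = 0.0046). These 5 genes were called under all 14 alternative analyses. The other 4 were nearer the threshold, with Mog at 1.60 ± 0.45 (adjusted p = 0.033), Ermn at 1.51 ± 0.46 (adjusted p = 0.049), Mal at 1.46 ± 0.38 (adjusted p = 0.021) and Cnp at 1.25 ± 0.32 (adjusted p = 0.020). Of the 14 alternatives, Ermn was called in 2 (adjusted p up to 0.24), Mog in 7 (up to 0.13), Cnp in 9 (up to 0.13) and Mal in 10 (up to 0.085). RLE scaling left 5 calls, losing Cnp (1.03, adjusted p = 0.062), Mog (1.38, adjusted p = 0.069), Mal (1.25, adjusted p = 0.051) and Ermn (1.29, adjusted p = 0.096). The count was also 5 without uninjured animal 65 and 5 without uninjured animal 79. Mal and Ermn had fallen in flow-through and were not called in HA IP, whereas Mag, Mobp, Cnp, Mog and Klk6 rose in HA IP and were not called in flow-through.

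**Figure D2:**
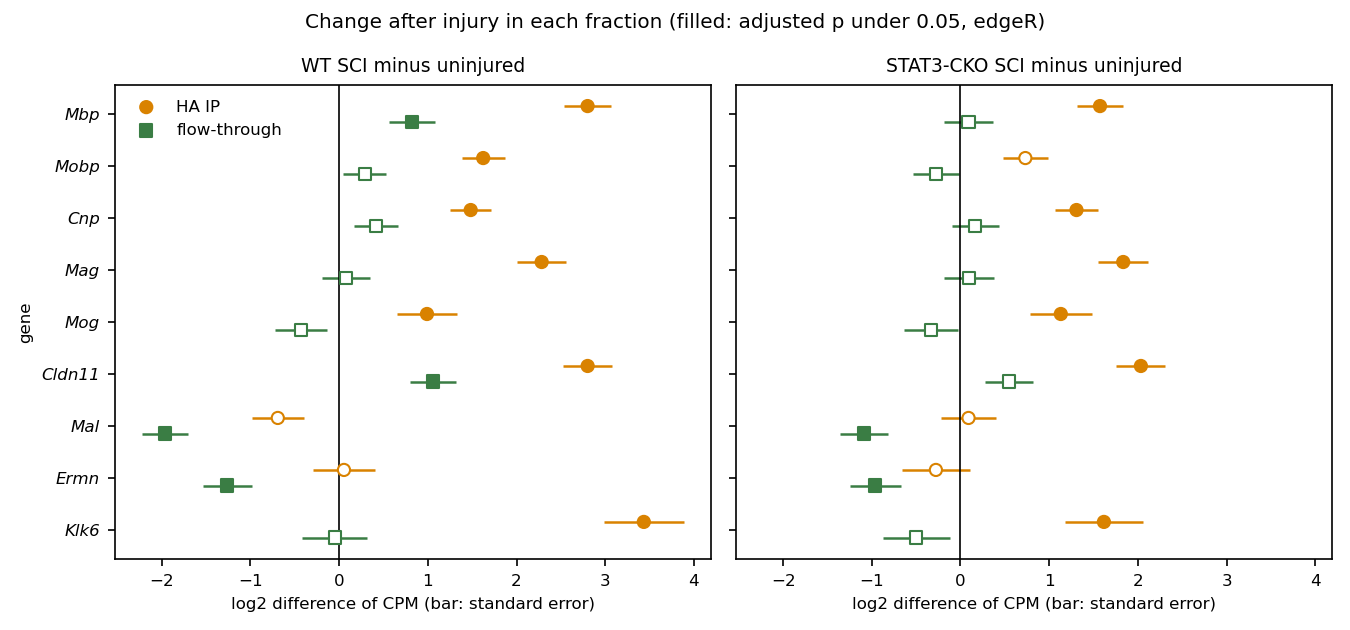
Log2 difference from uninjured mice for each gene, in HA IP and in flow-through, with 1 panel for WT SCI and 1 for STAT3-CKO SCI. Points are edgeR estimates, bars are standard errors, and filled points passed an adjusted p of 0.05. In WT SCI the HA IP point lies to the right of the flow-through point for all 9 genes.

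The 2 fractions of an animal could be set against each other directly, on log2 CPM scaled over all 22 libraries. In uninjured mice, HA IP was below flow-through in 36 of 36 pairs of gene and animal, where 51.4% of such pairs over all 15142 genes were. In WT SCI it was above flow-through in 35 of 36, the exception being Mog in animal 9935 (-0.49), where 45.7% of pairs over all genes were above. In STAT3-CKO SCI it was above in 22 of 27, beside 49.9% over all genes. Pairs of the same animal share its libraries, so they are not independent of each other. For Mbp, the HA IP minus flow-through difference was -1.25, -1.03, -1.38 and -1.08 in uninjured mice, 1.03, 1.11, 1.2 and 0.54 in WT SCI, and 0.21, 0.42 and 0.85 in STAT3-CKO SCI. For Mag it was -0.62, -0.64, -1.2 and -0.64, then 1.09, 1.85, 2.44 and 0.83, then 0.93, 1.39 and 1.09. For Klk6 it was -1.89, -2.12, -2.62 and -1.92 in uninjured mice and 1.84, 1.53, 2.29 and 0.57 in WT SCI, but -0.81, 0.28 and 0.25 in STAT3-CKO SCI. All WT SCI animals lay above all uninjured ones for these 3 genes and for the other 6, where 14.0% of all genes had that pattern.

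**Figure D3:**
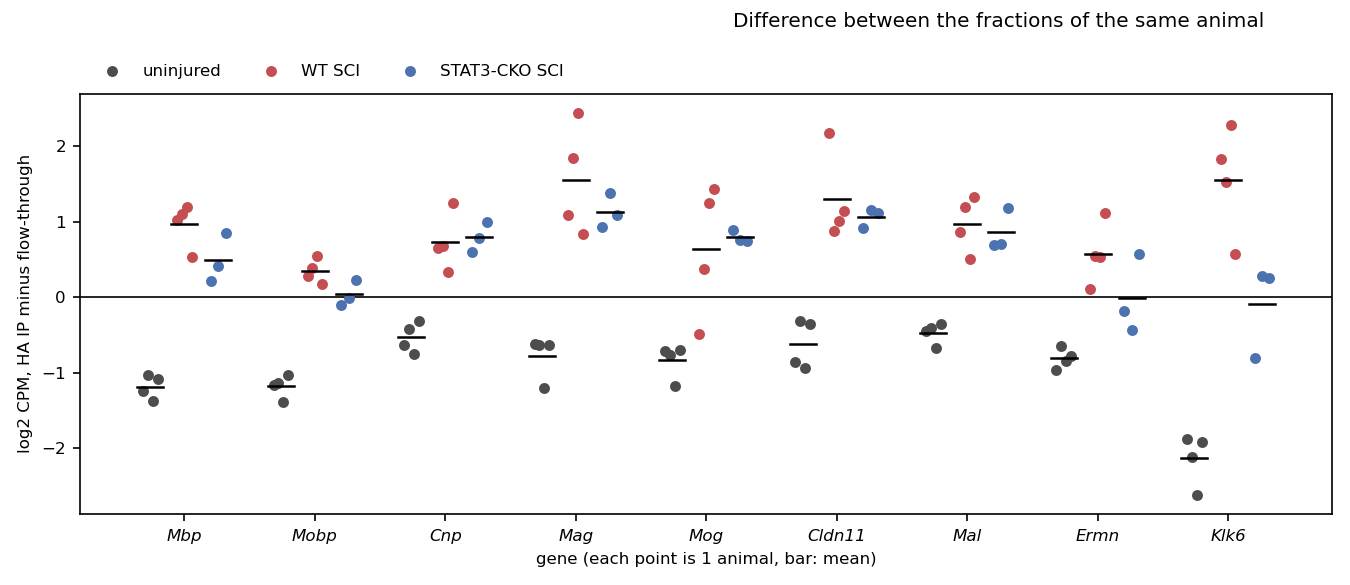
HA IP minus flow-through log2 CPM of the same animal for each gene, scaled over 22 libraries. Each point is 1 animal, bars are means, and colours are the 3 conditions. All uninjured points lie below 0, and all WT SCI points lie above 0 except Mog in 1 animal.

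Within uninjured cord, 8 of the 9 genes were called lower in HA IP than in flow-through, where 24.2% of 14312 genes were called lower, and Mal was at -0.36 ± 0.15 (adjusted p = 0.071, edgeR). Klk6 differed most, at -2.09 ± 0.20 (adjusted p = 9.9e-06). With the animal as a block, Mal was at -0.38 and called too (adjusted p = 0.0044). Without uninjured animal 65 the count was 5. Within WT SCI, Mag (1.44 ± 0.34, adjusted p = 0.012) and Cldn11 (1.16 ± 0.30, adjusted p = 0.024) were called higher in HA IP, where 4.09% of 8466 genes were. The animal block added Mbp (0.79, adjusted p = 0.0021) and Klk6 (1.33, adjusted p = 0.028), where 556 of all genes tested were called higher and 540 lower. This count of 2 fell to 0 without animal 9843 or animal 9874 and to 1 without animal 9596 or animal 9935.

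The levels were set in order per length, as CPM over 22 libraries per kilobase of joined exons. Mbp was first and Cnp second in all 6 groups. In uninjured HA IP, Mbp was at 103 ± 18.2 CPM per kilobase (SD, n = 4), Cnp at 44.4 ± 7.07 and Mal, the third, at 41.4 ± 7.49, where the ranges of Cnp and Mal overlapped. Mog, Mobp, Ermn and Cldn11 followed between 12.3 and 14.8 with overlapping ranges, Mag was at 6.79 and Klk6 was last at 2.65. In WT SCI HA IP, Mbp was at 714 ± 156 and Cnp at 123 ± 23.9 CPM per kilobase. There Cldn11 was the third at 85.0 ± 26.7, Mal eighth at 25.3 ± 9.69 and Ermn last at 12.7 ± 8.52. Neighbours from the fourth place (Mobp, 38.4) to the last overlapped in range. In flow-through, Mal went from the third place in uninjured mice (56.9 ± 6.07) to sixth in WT SCI (12.4 ± 2.41), and Cldn11 from seventh (18.7 ± 1.26) to the third (33.6 ± 4.2).

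The ratio of each gene's counts to those of Mbp in the same library does not depend on how libraries are scaled, and it was added after the data had been seen. In HA IP the log2 ratio fell between uninjured and WT SCI mice for Mal, by 3.54, for Ermn, by 2.95, for Mog, by 1.98, for Cnp, by 1.31, for Mobp, by 1.15, and for Mag, by 0.56. None of these 6 pairs of groups overlapped. Mbp itself rose, and 80.9% of 14763 other genes tested in HA IP also had a lower ratio without overlap. The fall as such is therefore not particular to the 6 genes, and only its size describes how they moved relative to Mbp. Per library, the Mal ratio in HA IP was -2.82, -3.21, -3.10 and -2.60 in uninjured mice and -7.03, -6.29, -7.20 and -5.36 in WT SCI. The ratio of Cldn11 overlapped between the groups, with a difference of -0.02 in HA IP and 0.23 in flow-through. In flow-through the ratio fell by 2.81 for Mal, 2.16 for Ermn, 1.29 for Mog, 0.93 for Klk6, 0.72 for Mag and 0.52 for Mobp, each without overlap, as for 31.4% of 12684 other genes. Cnp there was at -0.41 and Klk6 in HA IP at 0.57, both overlapping.

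**Figure D4:**
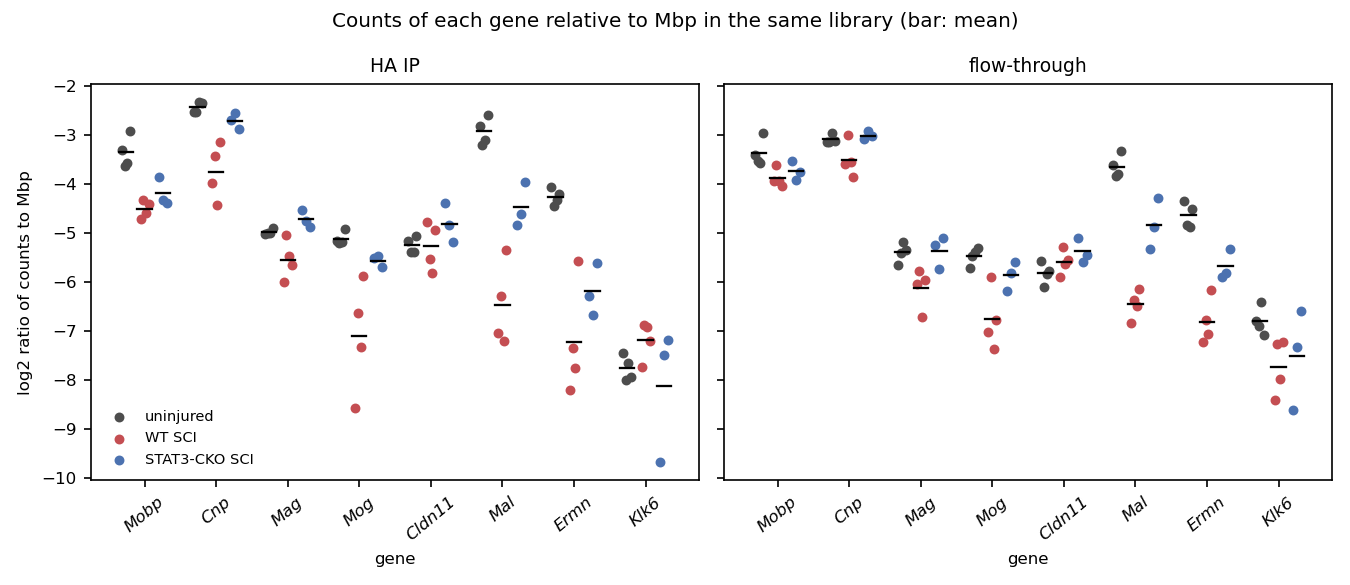
Log2 ratio of each gene's counts to those of Mbp in the same library, HA IP on the left and flow-through on the right. Points are libraries, bars are group means and colours are the 3 conditions. WT SCI points of Mal, Ermn and Mog lie below all uninjured points in both panels, while those of Cldn11 overlap.

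STAT3-CKO SCI was compared with WT SCI to ask what the loss of STAT3 in Cre-active cells changes. Stat3 itself was at 45.9 ± 18.4 CPM (SD, n = 4) in HA IP of WT SCI and 10.1 ± 2.24 (n = 3) in that of STAT3-CKO SCI, a difference of -2.17 ± 0.34 (adjusted p = 0.0033, edgeR). In flow-through it was at 33.9 ± 17.98 and 22.1 ± 6.95 CPM, -0.66 ± 0.37 (adjusted p = 0.44). Mbp was the 1 gene of the 9 called between the injured groups in HA IP, where 0.562% of 14764 genes were called lower and 0.596% higher. Its STAT3-CKO SCI libraries had 2145, 2509 and 2388 CPM, all below the 4 of WT SCI and all above the 4 of uninjured mice. The difference was -1.23 ± 0.27 (2.34-fold lower, adjusted p = 0.033), and it missed the threshold with only the 2 groups in the fit (-1.26, adjusted p = 0.16) and without STAT3-CKO SCI animal 186 (-1.16, adjusted p = 0.084), 270 (-1.26, adjusted p = 0.088) or 531 (-1.27, adjusted p = 0.10).

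Klk6 was at 2.59, 14.0 and 16.3 CPM in HA IP of STAT3-CKO SCI, where animal 186 lay below all uninjured libraries and all 3 lay below those of WT SCI. Its difference from WT SCI of -1.82 ± 0.47 was not called (adjusted p = 0.064, edgeR). Mobp, at 148, 124 and 114 CPM, also lay below all WT SCI libraries (-0.89 ± 0.26, adjusted p = 0.10). Mal, at 74.6, 103 and 154 CPM, overlapped WT SCI (0.78 ± 0.31, adjusted p = 0.22), as did Mag at 92.9, 92.2 and 81.4 CPM (-0.45 ± 0.29, adjusted p = 0.45). In flow-through none of the 9 genes was called by edgeR, where 0.118% of 12685 genes were. There 3 of the 9 had an unadjusted p under 0.05, beside 1665 of the 12685 genes. DESeq2 called 2, Mal (0.83) and Mbp (-0.79), where it called 121 of all genes tested higher and 84 lower. The edgeR values were 0.88 ± 0.27 for Mal (adjusted p = 0.18) and -0.73 ± 0.28 for Mbp (adjusted p = 0.27). Whether the difference between the injured groups differed between the fractions was called for none of the 9 by edgeR, where 0.0264% of 15142 genes were called, and for none by DESeq2. Of the 9, 1 had an unadjusted p under 0.05, Klk6 (-1.38 ± 0.62), beside 932 of the 15142 genes.

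Against the same uninjured mice, which both injured groups share as controls, 6 of the 9 genes were higher in HA IP of STAT3-CKO SCI, where 7.70% of 14764 genes were called higher. Cldn11, at 102, 87.2 and 65.1 CPM, was higher by 2.03 ± 0.28 (adjusted p = 5.1e-05, edgeR) and Mag by 1.83 ± 0.28 (adjusted p = 0.00021). Mbp was higher by 1.57 ± 0.26 (adjusted p = 0.00046) and Cnp, at 332, 425 and 323 CPM, by 1.31 ± 0.25 (adjusted p = 0.0014). These 4 were called under all 14 alternative analyses. Klk6 (1.62 ± 0.44, adjusted p = 0.0235) missed the threshold without STAT3-CKO SCI animal 270 (1.19, adjusted p = 0.13) or 531 (1.41, adjusted p = 0.12), and without any 1 of the uninjured animals (1.54 to 1.63, adjusted p up to 0.080). Mog, at 46.8, 56.1 and 45.9 CPM, all above uninjured mice, was higher by 1.13 ± 0.35 (adjusted p = 0.048). It was called in 5 of 14 alternatives, with differences from 1.02 to 1.19 and adjusted p up to 0.18, and it missed the threshold without any 1 of the 7 animals compared. Mobp was at 0.73 ± 0.25 (adjusted p = 0.078). Ermn, at 27.3, 24.6 and 48.5 CPM, was below all uninjured libraries in 2 animals and above them in animal 270. Neither Ermn (-0.28 ± 0.38) nor Mal (0.09 ± 0.31) was called.

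In flow-through of STAT3-CKO SCI, Mal was at 59.0, 80.1 and 86.5 CPM and Ermn at 39.8, 42.1 and 41.8 CPM, all below uninjured mice. Both were lower, Mal by 1.09 (-1.09 ± 0.27, adjusted p = 0.0057, edgeR) and Ermn by 0.96 (-0.96 ± 0.29, adjusted p = 0.022), where 3.53% of 12685 genes were called lower. With RLE scaling the calls over all genes split into 1135 higher and 677 lower, against 1321 and 448 with TMM. Thinned to equal depth, neither was called (Mal -0.73, adjusted p = 0.079, and Ermn -0.92, adjusted p = 0.070). Ermn also missed the threshold without STAT3-CKO SCI animal 186 (-0.95, adjusted p = 0.077) or 531 (-0.99, adjusted p = 0.083) and without uninjured animal 154 (-0.96, adjusted p = 0.062) or 79 (-0.96, adjusted p = 0.055), so it was called in 9 of 14 alternatives and Mal in 13. Mbp, at 2377, 2380 and 1688 CPM (0.09 ± 0.28, adjusted p = 0.88) and Mag (0.10 ± 0.28, adjusted p = 0.87) were not called.

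The fractions differed in this change for 3 of the 9 genes, Mag (1.91 ± 0.40, adjusted p = 0.011, edgeR), Cldn11 (1.66 ± 0.38, adjusted p = 0.024) and Mbp (1.66 ± 0.34, adjusted p = 0.0093), where 0.238% of 15142 genes were called higher and 0.621% lower. All 3 were lost without STAT3-CKO SCI animal 531 and without uninjured animal 65, and 1 remained without animal 270. With the animal as a block, 8 were called, where 301 of all genes tested were called higher and 403 lower. Within STAT3-CKO SCI, Mag (1.06 ± 0.28, adjusted p = 0.020) and Cldn11 (0.98 ± 0.31, adjusted p = 0.045) were higher in HA IP than in flow-through, where 7.12% of 12659 genes were. The block added Cnp (0.73), Mal (0.80), Mbp (0.42) and Mog (0.73), where 1695 of all genes tested were called higher and 1410 lower. Without animal 270 or animal 531 none of the 9 was called.

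Other genes of mature oligodendrocytes and myelin, 30 in number, were counted in the same comparisons. Of all genes tested in WT SCI, 15.8% were called higher and 10.9% lower in HA IP, and 16.7% and 14.3% in flow-through. Between fractions 2.67% were called higher and 2.03% lower. The same shares stand beside every list of WT SCI below. In HA IP of WT SCI 17 rose and 2 fell (median 1.37), in flow-through 3 rose and 8 fell (median -0.33), and the difference between fractions was called higher for 11 and lower for none (median 1.51). Apod, an oligodendrocyte-made lipid carrier, rose by 3.38 ± 0.34 in HA IP (adjusted p = 1.4e-06, edgeR) and was at 0.40 ± 0.27 in flow-through (adjusted p = 0.27). Trf, transferrin, rose by 2.20 ± 0.49 in HA IP (adjusted p = 0.0027), with WT SCI libraries spread from 104 to 921 CPM, and it was lower in STAT3-CKO SCI than in WT SCI (-2.28 ± 0.55, adjusted p = 0.047). Opalin, a marker of mature oligodendrocytes, was at -0.10 in HA IP and 0.09 in flow-through, both not called.

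Of 10 transcription factors of the lineage, 6 rose in HA IP and none fell (median 1.16). In flow-through 1 rose and 1 fell (median 0.30), no larger a share than over all genes tested. Myrf, the activator of myelin genes, rose by 2.48 ± 0.28 in HA IP (adjusted p = 4.7e-06, edgeR) and by 0.69 ± 0.25 in flow-through (adjusted p = 0.039), and the fractions differed (1.98 ± 0.36, adjusted p = 0.00086). Sox10, with which MYRF acts, rose by 1.29 ± 0.33 in HA IP (adjusted p = 0.0078) and differed between fractions as well (2.07 ± 0.48, adjusted p = 0.0087). Olig1 rose by 1.03 and Olig2 by 1.62 in HA IP, and neither was called between fractions (adjusted p = 0.085 and 0.38).

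Genes of committed precursors and newly formed oligodendrocytes rose in HA IP for 9 of 10 (median 1.66) and in flow-through for 4 (median 0.72), and 3 differed between fractions. Bcas1, which marks newly myelinating cells, rose by 1.56 ± 0.24 in HA IP (adjusted p = 0.00011, edgeR) against 0.29 ± 0.24 in flow-through. Gpr17, a receptor of committed precursors, rose in both, by 2.54 and 1.45. Of 10 oligodendrocyte precursor genes 6 rose and 1 fell in HA IP (median 1.37), and 3 of 9 tested rose in flow-through (median -0.13). Between fractions none was called, and 6 had an unadjusted p under 0.05, beside 2629 of 15142 genes tested. Pdgfra, the growth factor receptor of precursors, rose by 1.70 in HA IP, and the proteoglycan gene Cspg4 rose in both fractions, by 2.31 and 3.21. Ptprz1, which astrocytes express too, fell by 1.23 in HA IP (-1.23).

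**Figure D5:**
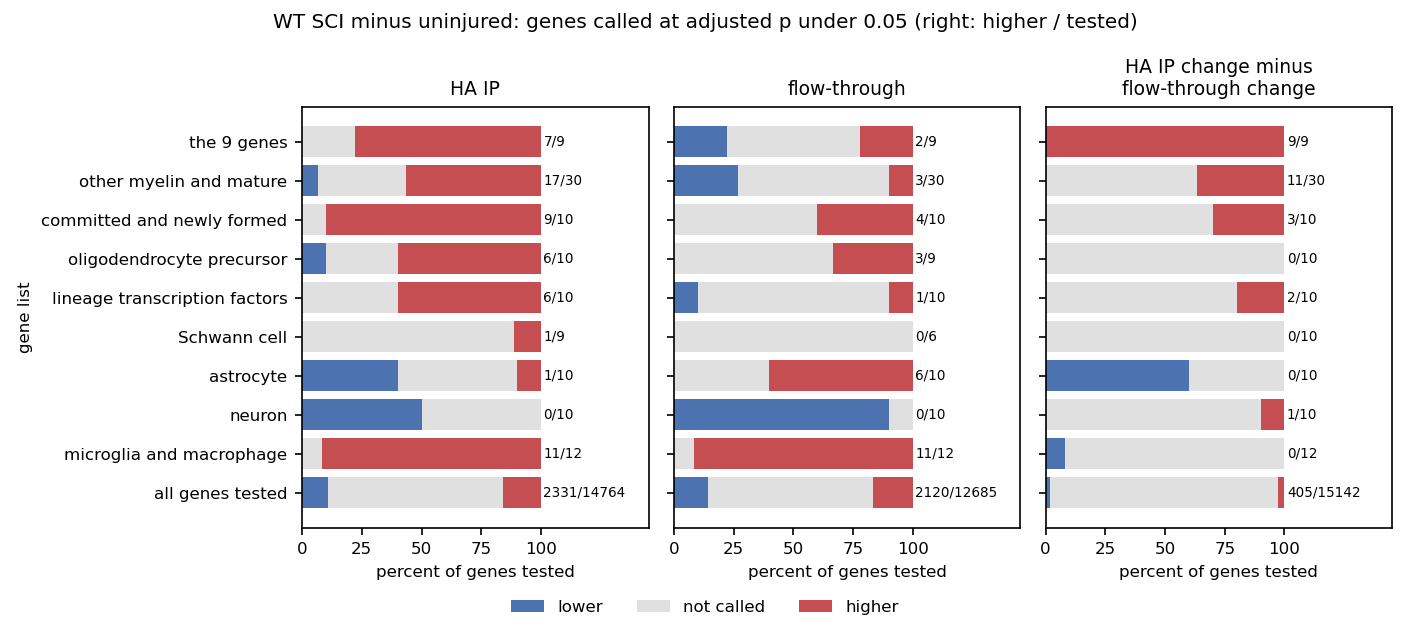
Share of genes called higher, called lower and not called in WT SCI against uninjured mice, for the 9 genes, 8 other gene lists and all genes tested. Panels are HA IP, flow-through and the difference between their changes, and the figures at the right are genes called higher of genes tested. All 9 genes are called higher in the last panel, against 405 of 15142 genes in all.

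Genes that mark other cells moved as well. The summed level of 10 astrocyte genes was 4851 CPM on average in uninjured HA IP (4581 to 5418) and 4556 in WT SCI (3486 to 6046), and 467 and 1292 CPM in flow-through. In HA IP 1 of the 10 rose, Gfap, the filament gene whose promoter drives Cre, from 746 to 2291 CPM on average, and 4 fell, Aqp4, Slc1a3, Gja1 and Aldoc, with a median of -0.68 over the list. In flow-through 6 rose and none fell (median 1.26). The median log2 difference of these genes between HA IP and flow-through was 4.41 in uninjured mice, 2.47 in WT SCI and 2.64 in STAT3-CKO SCI, while that of the 9 myelin genes was -0.72, 0.82 and 0.72. Genes of microglia and macrophages, 12 in number, rose for 11 in HA IP, from a summed 14.1 to 32.8 CPM in uninjured mice to 677 to 2464 CPM in WT SCI. They also rose for 11 in flow-through, to 3032 to 9363 CPM, and 1 of the 12 was called between fractions, lower. None of the 12 was at 0 in a whole group. Of 10 neuron genes 5 fell in HA IP and 9 in flow-through. Between fractions all 10 lay above 0 (median 0.79, beside 0.26 over all genes tested), and 1 was called, higher. Of the 10 astrocyte genes 6 were called lower between fractions (median -1.83) and none higher. The summed level of the neuron genes was 559 CPM (417 to 741) in uninjured and 176 CPM (99.0 to 234) in WT SCI HA IP. In uninjured mice all 10 neuron genes were lower in HA IP than in flow-through, at -2.24 to -2.07, and were still measured there. The part of these shifts in the changes of the myelin genes was not tested.

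Schwann cells, which myelinate peripheral nerve and share Mbp, Mag, Cnp and Mal with oligodendrocytes, were followed with 10 genes. In HA IP 9 were tested and 1 rose, Egr2 (3.88, adjusted p = 0.0049, edgeR). In flow-through none of 6 tested was called, and none had an unadjusted p under 0.05, beside 5278 of 12685 genes tested. The summed level of the 10 genes in HA IP ranged from 61.7 to 75.3 CPM in uninjured mice. It ranged from 42.4 to 83.0 after WT SCI and from 67.3 to 82.6 after STAT3-CKO SCI. Pmp2 was at 0 in all 4 WT SCI libraries of HA IP. Of the sum, Pmp22, which other cells express too, made up 33.6 to 48.0 CPM in uninjured mice and 21.6 to 59.0 CPM in WT SCI. The part of Schwann cells in the myelin gene changes was not tested.

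Genes whose profile over the 22 libraries was among the nearest to the mean of the 9, by root mean square difference of centred log2 CPM among 3927 genes, were Lrrc4b (0.28), Pacs2 (0.28), Rnf220 (0.29), Kif1b (0.33), Efnb3 (0.35), Smarcc2 (0.35), Tppp (0.35), Cmip (0.35) and Klhl2 (0.36). Tppp is a gene of mature oligodendrocytes in the list above. Of the 9 themselves, Cnp was nearest to the mean (0.29) and Mal farthest (0.94), followed by Klk6 (0.82), Ermn (0.76) and Cldn11 (0.64). These distances describe the 22 libraries, which share depth and composition differences, and carry no test.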

How the data were processed

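RNA of 22 libraries, HA IP and flow-through of 11 mice, was measured. Per the labels' protocols, 5 ng of RNA per library went into cDNA synthesis (NuGEN Ovation V2), with 10 cycles of PCR. CASAVA 1.8.2, mm10 and edgeR stand in the submitters' processing notes without a role. How reads were aligned, counted and assigned to a strand is not given in the sources used here. The authors deposited 5 tables of raw read counts per gene, per the file headers, and 0 of the counts that tables share differed between them. The tables' other 124 columns with values per sample were left aside.

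Groups follow the labels' genotype, injury and fraction. Genes were filtered with filterByExpr, libraries were scaled with TMM over all rows, ribosomal ones included, and contrasts were tested in edgeR 4.0.16 (R 4.3.3) with glmQLFit and glmQLFTest. The 11 libraries of a fraction entered 1 fit, the 2 fractions of a condition a fit of their own, and all 22 the test between fractions. Each animal's number in the titles marks both its libraries, and their deviations from group means correlated best with each other for all 11 animals (r from 0.319 to 0.679), so the animal is a true block and served as an alternative. Simulated counts were used to test the script. Alternatives were RLE scaling, DESeq2 1.42.0, no filter, the ribosomal rows left out, thinning to equal depth, other samples in the fit and leaving out each animal.

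The 9 genes and the gene lists were chosen with earlier results of these data known. Named genes outside the 9 were the 3 of each list with the highest mean level over 22 libraries plus a set of lineage markers, and the 10 genes nearest in profile. Values are given here for those that bear on the 9 genes. Results of some of these genes are not reported here.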

Additional observations from a re-analysis of the deposited data

Results flagged for a closer look

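Among 36 groups of 4 libraries tested for a sample far from the rest, which chance flags in about 5% of groups, 1 stood out. Mag in the flow-through of WT SCI animal 9843 was at 36.1 CPM, below the other 3 at 55.2 to 57.3 CPM, while its HA IP level of 154 CPM in that animal was the second highest of the 4. Without animal 9843 the flow-through difference of Mag from uninjured mice was 0.22 in place of 0.08 and was still not called.

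The injury change of WT mice differed between HA IP and flow-through for all 9 genes by the test of that difference in edgeR, Klk6 by 3.67, Mag by 2.39, Mbp by 2.17, Cldn11 by 1.93, Mog by 1.60, Mobp by 1.52, Ermn by 1.51, Mal by 1.46 and Cnp by 1.25. Over the 14 alternatives Ermn was called in 2, Mog in 7, Cnp in 9, Mal in 10 and the other 5 in all. The change in STAT3-CKO SCI, measured from the same uninjured mice, differed between the fractions for Mag by 1.91, Mbp by 1.66 and Cldn11 by 1.66.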

How the results depend on the processing

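The counts of members called moved with the processing as follows. For the WT injury change between fractions, 9 members were called, against 5 with RLE scaling and 5 to 9 leaving out 1 animal at a time. For STAT3-CKO SCI against uninjured mice between fractions, which mixes injury and genotype, 3 were called. This compares with 8 with the animal as a replicate block, 6 with DESeq2, 1 thinned to equal depth and 0 to 2 leaving out 1 animal. For HA IP against flow-through, uninjured mice had 8 members called (5 with all 22 libraries in 1 fit, 5 to 9 leaving out 1 animal). WT SCI had 2 (6 with all 22 libraries, 4 with the block, with DESeq2, with no filter or thinned, 0 to 1 leaving out 1 animal), and STAT3-CKO SCI had 2 (6 with the block, 1 with RLE scaling or thinned, 0 to 2 leaving out 1 animal). For STAT3-CKO SCI against WT SCI, HA IP had 1 member called (2 with all 22 libraries, with no filter or thinned, 3 with DESeq2, 0 with only the 2 groups, 0 to 2 leaving out 1 library) and flow-through 0 (2 with DESeq2). STAT3-CKO SCI against uninjured mice in flow-through had 2 (0 thinned, 1 to 2 leaving out 1 library). The block changed no other count by more than 1.5 times, and the cause of these moves was not tested. The other counts stayed within 1.5 times.

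Of 1422 single values of members under an alternative, 1283 kept their side of the threshold, 97 fell short of it and 42 newly passed it. In 63 the sign changed with the threshold passed under neither setting, the largest at a size of 0.52, and in 0 with it passed. Over all genes, the 405 higher and 308 lower calls between fractions in WT mice became 1158 and 776 with the block, 501 and 688 with DESeq2 and 107 and 185 thinned. Higher and lower calls over all genes also moved by over 1.5 times elsewhere. STAT3-CKO SCI against uninjured mice between fractions (36 and 94) went to 301 and 403 with the block, 113 and 259 with DESeq2 and 18 and 37 thinned. HA IP against flow-through went from 346 and 183 to 1317 and 389 with all 22 libraries, 556 and 540 with the block and 541 and 395 with DESeq2 in WT SCI, from 901 and 595 to 1695 and 1410 with the block in STAT3-CKO SCI, and from 3780 and 3470 to 1778 and 1591 with all 22 libraries in uninjured mice. STAT3-CKO SCI against WT SCI went from 88 and 83 to 415 and 488 with DESeq2, 150 and 120 with all 22 libraries and 11 and 25 with only the 2 groups in HA IP, and from 11 and 4 to 121 and 84 with DESeq2 and 73 and 58 with no filter in flow-through. Against uninjured mice, STAT3-CKO SCI went from 1137 and 307 to 1494 and 745 with DESeq2, 2178 and 1407 with only the 2 groups and 713 and 220 thinned in HA IP, and from 1321 and 448 to 1592 and 1159 with only the 2 groups and 447 and 177 thinned in flow-through. WT SCI flow-through went from 2120 and 1813 to 746 and 549 thinned.

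Depth limits the injured flow-through most, where the library of WT SCI animal 9935 kept 91626 counts outside ribosomal rows. On the TMM scale of the levels above, 3 counts in that library, those of Opalin, were 5.91 CPM. Its 5 counts of Klk6 were 9.86 CPM and its 16 counts of Mal 31.5 CPM. Counting intervals would cover counting error only.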
